A study of Arabidopsis thaliana with 9 samples.

Results

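The comparison set roots that overexpress the microRNA miR858, labelled 35S:miR858, against roots of wild-type Col-0, the common laboratory accession of Arabidopsis thaliana, and read it across gene families outside the secondary wall and flavonoid pathways. The contrast is between 6 of the 9 RNA-seq libraries of the series, 3 for each group. The other 3, of 35S:rMYB83, which overexpresses MYB83, were in the same fit, so every SE and p-value rests on the spread of all 9 libraries. In that fit 19496 of 28775 listed loci had enough counts to be tested. Every group was root tissue of plants aged 2 weeks, grown at 24 °C with 16 h of light and 8 h of dark. In 35S:miR858 the microRNA is driven by the 35S promoter of cauliflower mosaic virus, which is active in most plant cells, so its expression is not limited to the cells that normally make it. Whether the line came from 1 transformation event, and whether the 3 libraries came from separate cultures, is not stated, so p-values measure the spread between these samples, which may be technical.

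MicroRNAs are short RNAs that guide an Argonaute protein to messenger RNAs with a matching site, and in plants such a site is usually cut when pairing is close to complete. miR858 is known for pairing with the conserved DNA-binding repeat of R2R3-type MYB transcription factors, a large plant family that controls phenylpropanoid metabolism, cell fate and stress responses. Plants have many MYB genes, and those without a site can still change when other regulators change.

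The mature sequences and the sites they pair with show which bases carry the match. The lines that follow give the mature miR858a and miR858b in RefSeq's annotation of TAIR10.1, from the chr1:26773695-26773715 minus strand and the chr1:26772907-26772927 plus strand, with the seed (bases 2 to 8) in capitals. They then give the predicted miR858a sites of 4 MYB genes outside the wall and flavonol pathways, with the bases that face the seed in capitals. All 4 sites lie in coding sequence.
miR858a: uUUCGUUGucuguucgaccuu
miR858b: uUCGUUGUcuguucgaccuug
MYB305 site, chr3:8811818-8811838, minus strand, exon 2 of 2: cgggaagaacagaCAACGAAa
MYB6 site, chr4:5993617-5993637, plus strand, exon 2 of 2: caggaagaacagaTAACGAAa
MYB13 site, chr1:1890638-1890658, plus strand, exon 3 of 3: ctggacgaacagaCAACGAAa
MYB93 site, chr1:12709615-12709635, plus strand, exon 3 of 3: aaggtcgtacagaTAATGAGa

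Depth ranged from 8131026 to 10648857 counts in Col-0 and from 8409713 to 9461852 in 35S:miR858. Of the tested genes 4900 (25.1%) passed the test, 2271 higher (11.6%) and 2629 lower (13.5%), and these shares are the background for every count of members below. Scaling by library totals in place of TMM gave 1355 higher and 4148 lower and moved the median log2 fold change of all tested genes by -0.144, so small changes are to be read relative to that shift. The precursor locus MIR858a had 0 counts in each Col-0 library and 120, 200 and 227 in 35S:miR858. Summed levels of 14 root markers ran from 5980 to 8030 CPM (counts scaled to library size) in Col-0 and from 8390 to 9230 in 35S:miR858. Those of 19 green shoot markers ran from 697 to 3840 in Col-0, where replicate 1 stood apart, and from 793 to 1980 in 35S:miR858. Those of 5 seed markers, 2 of which rose, ran from 0.0862 to 0.603 CPM in Col-0 and from 0.96 to 28.2 in 35S:miR858, and 6 pollen and flower markers stayed at or under 6.7 CPM in every library. Of 13 tested root markers 3 rose and 2 fell, and of 19 green shoot markers 0 passed. The 1 tested pollen and flower marker rose. The part of these markers in the results was not tested. Levels of a gene are given for replicates 1, 2 and 3 in that order, Col-0 first and then 35S:miR858 unless a sentence says otherwise. Genes named from the family lists had to have groups that do not overlap. For them a lack of overlap was thus fixed by the choice and adds nothing to the test. In whole roots fewer cells of a type and less RNA per cell cannot be told apart.

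Tested genes with a predicted site did not move one way. At a penalty of up to 4 (1 for a mismatch, 0.5 for a G:U pair, doubled at miRNA positions 2 to 13) the search found 14 loci, all of them MYB genes, of which 9 were tested. Of these 3 fell, 1 rose and 5 did not pass, with a median log2 fold change of -0.33 against -0.02 over all tested genes. MYB42, MYB63 and MYB305 fell, MYB6 rose, and MYB12, MYB13, MYB20, MYB83 and MYB93 did not pass. Library totals in place of TMM scaling put 5 of the 9 lower. MYB305, which RefSeq also lists as MYB71, stood at 23.3, 29.1 and 31 CPM in Col-0 and at 8.04, 5.51 and 3.98 CPM in 35S:miR858. Every 35S:miR858 library lay below every Col-0 library (log2 fold change -2.25, SE 0.27, adjusted p = 0.000354), a lack of overlap seen for 40.6% of all tested genes. MYB6 stood at 12.3, 10.3 and 12.2 CPM in Col-0 and at 15.6, 15.7 and 17.2 CPM in 35S:miR858, again without overlap but in the opposite direction (log2 fold change 0.48, SE 0.13, adjusted p = 0.0214), a call that did not hold in every fit with 1 library left out. MYB93, known from work on lateral root development, stood at 18.7, 27.5 and 26.8 CPM and 17, 25.6 and 22.4 CPM and overlapped between the groups (adjusted p = 0.612). MYB13 had 14.6, 13.1 and 14.7 CPM in Col-0 and 10.9, 10.9 and 11.8 CPM in 35S:miR858 and did not pass (adjusted p = 0.108). MYB17 was not tested, with 9, 9 and 4 counts in Col-0 and 1, 3 and 3 in 35S:miR858, and MYB104 had 0 counts in all 6 libraries. MYB11, also untested, had 6, 13 and 4 counts in Col-0 and 1, 1 and 0 in 35S:miR858. The untested TT2 had 2, 2 and 1 and then 0, 0 and 1 counts, and MYB111 had 2, 3 and 0 and then 0, 0 and 1.

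A looser limit brought in more genes of both directions. At a penalty of up to 5 there were 45 loci, 39 of them MYB genes, and of 33 tested 10 fell, 3 rose and 20 did not pass. MYB19 stood at 4.05, 9.87 and 6.75 CPM in Col-0 and 0.72, 0.768 and 0.861 CPM in 35S:miR858, where no library exceeded 1 CPM (log2 fold change -3.11, SE 0.40, adjusted p = 0.000516). MYB40 had 5.69, 12.9 and 10.5 CPM against 2.64, 2.18 and 1.18 CPM (log2 fold change -2.28, SE 0.36, adjusted p = 0.00157). MYB37, a regulator of axillary meristems, had 9.91, 10.6 and 12.3 CPM against 4.2, 3.07 and 3.01 CPM (log2 fold change -1.67, SE 0.26, adjusted p = 0.00139). For these 3 genes the groups did not overlap. MYBL2, a MYB-like repressor, was higher in 35S:miR858, at 21, 13.6 and 20.3 CPM against 11, 3.62 and 6.39 CPM in Col-0 (log2 fold change 1.38, SE 0.40, adjusted p = 0.031). Outside the MYB family, the trehalose phosphate phosphatase gene TPPI fell (log2 fold change -1.58, SE 0.32, adjusted p = 0.00623) and AT5G42880 rose (log2 fold change 0.55, SE 0.09, adjusted p = 0.00244).

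**Figure D1:**
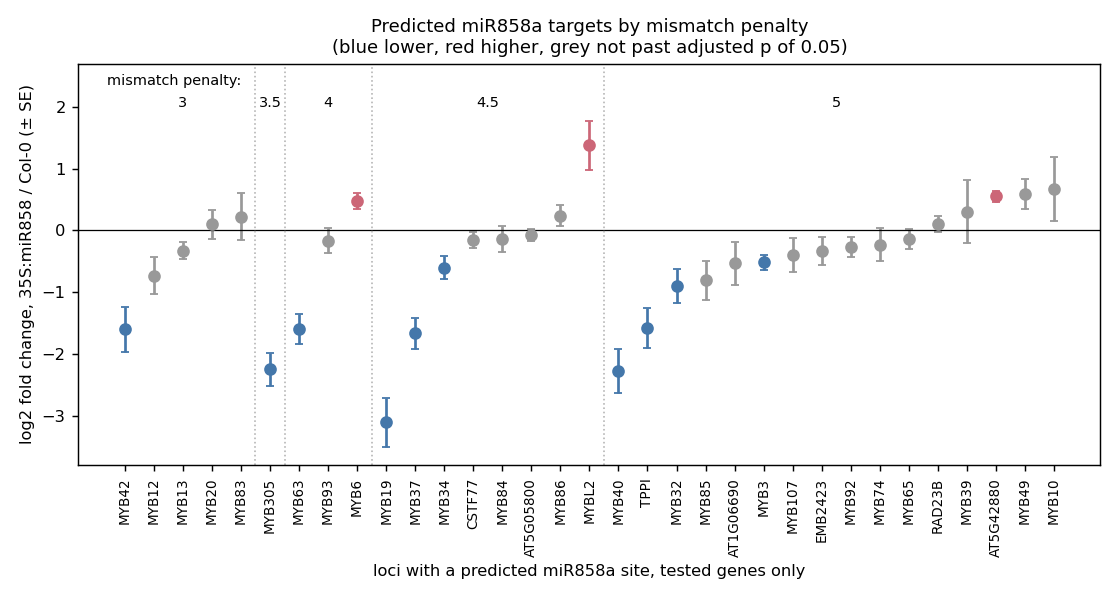
Log2 fold change with its standard error (vertical axis) of the 33 tested loci with a predicted miR858a site, ordered by penalty (3 to 5, numbers at the top) and then by fold change. Genes past the test lie on both sides of 0 at a penalty of 4 and above, and the lowest value is that of MYB19 at -3.11.

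Several transcription factor families had members that fell and few or none that rose. RWP-RK factors, a family added after values were seen, include the NIN-like proteins, which are known for their part in nitrate responses. Of 8 tested, 7 fell and 0 rose by edgeR, by DESeq2 and at an unadjusted p under 0.05, with a median log2 fold change of -2.98. AT3G59580 (NIN-like protein 9) stood at 13.7, 62.8 and 40.9 CPM in Col-0 and at 0.12, 0.128 and 0.43 CPM in 35S:miR858 (log2 fold change -7.29, SE 0.76, adjusted p = 0.000176). AT2G43500 (NIN-like protein 8) stood at 76.7, 206 and 162 CPM and 3.84, 5.51 and 3.77 CPM (log2 fold change -5.08, SE 0.37, adjusted p = 3.51e-05). Col-0 replicate 1 was the lowest of its group for both, and it still lay far above every 35S:miR858 library. AT4G38340 and AT4G35270 (NIN-like proteins 3 and 2) fell as well (log2 fold change -5.26, adjusted p = 2.87e-05; log2 fold change -3.50, adjusted p = 6.64e-05).

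MADS-box factors, known mainly for flowering time and organ identity, had 24 tested members, of which 11 fell and 0 rose, and edgeR at an unadjusted p under 0.05 and DESeq2 gave 0 rises as well. The flowering integrator AGL20, also called SOC1, stood at 69.1, 106 and 77.6 CPM in Col-0 and at 21.8, 21.8 and 26.4 CPM in 35S:miR858 (log2 fold change -1.85, SE 0.16, adjusted p = 6.61e-05). The floral repressor SVP stood at 63.3, 74.7 and 66.2 CPM and 24, 21.5 and 21.2 CPM (log2 fold change -1.61, SE 0.20, adjusted p = 0.000407). The 2 genes act in opposite ways on flowering, and both had groups that did not overlap. AGL19 also fell (log2 fold change -3.46, adjusted p = 0.00351). Auxin response factors, which bind the promoters of auxin-responsive genes, had 16 tested members of which 8 fell and 0 rose, with 1 rise at an unadjusted p under 0.05 and 0 by DESeq2. ARF20 stood at 12.6, 13.9 and 14 CPM and 0.72, 0.768 and 1.51 CPM (log2 fold change -3.71, SE 0.32, adjusted p = 7.17e-05). ARF9 stood at 113, 152 and 141 CPM and 40, 35.6 and 35.3 CPM (log2 fold change -1.87, SE 0.13, adjusted p = 3.34e-05), and ARF11 and ARF4 fell as well (log2 fold change -2.55, adjusted p = 6.9e-05; log2 fold change -0.84, adjusted p = 0.000541). No 35S:miR858 library of these genes reached the lowest Col-0 value. DOF zinc finger factors had 8 that fell and 0 that rose of 18 tested, with 2 rises at an unadjusted p under 0.05 and 0 by DESeq2. A DOF rise appeared when Col-0 replicate 1 or 35S:miR858 replicate 1 was left out, and 1 auxin response factor rose without Col-0 replicate 1.

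NAC factors, many of which act in senescence and stress, had 23 members lower and 3 higher of 73 tested, and 17 of the falls held in each fit with 1 library left out, against 8.45% of all tested genes. Without 35S:miR858 replicate 3, 5 rose. NAC042, known as a longevity regulator, stood at 13.8, 16.1 and 15.1 CPM in Col-0 and 0.96, 1.92 and 1.51 CPM in 35S:miR858 (log2 fold change -3.35, SE 0.29, adjusted p = 6.93e-05). NAP, a senescence regulator, stood at 28.4, 9.78 and 21.8 CPM and 4.68, 3.58 and 3.01 CPM (log2 fold change -2.41, SE 0.41, adjusted p = 0.00234). NAC044, which acts in the DNA damage response, moved the other way, from 1.98, 0.815 and 0.964 CPM to 4.68, 6.79 and 9.04 CPM (log2 fold change 2.41, SE 0.40, adjusted p = 0.00217). The 3 NAC genes had no overlap between groups, although NAP varied widely within Col-0. Among HD-ZIP and related homeobox factors 10 fell and 6 rose of 46. The abscisic acid-responsive HB-7 stood at 111, 122 and 147 CPM and 26.6, 27.5 and 34.3 CPM (log2 fold change -2.10, SE 0.18, adjusted p = 5.94e-05), and its close relative HB-12 at 24, 26.7 and 28.4 CPM and 6.84, 3.84 and 3.23 CPM (log2 fold change -2.51, SE 0.38, adjusted p = 0.00123). Both dropped together without overlap. bZIP factors had 12 lower and 5 higher of 47, and BZO2H3, a bZIP factor of the sugar and energy response, was among those higher at 56.4, 67.1 and 71.1 CPM against 24, 18.4 and 20.1 CPM (log2 fold change 1.64, SE 0.13, adjusted p = 5.7e-05). GRAS factors had 9 higher and 5 lower of 22, a lean that turned to 4 higher and 9 lower by library totals. The rises numbered 4 with Col-0 replicate 2 left out, 5 without 35S:miR858 replicate 2 and 4 without 35S:miR858 replicate 3. The DELLA growth repressor RGA1 was slightly higher (log2 fold change 0.45, SE 0.08, adjusted p = 0.00381).

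**Figure D2:**
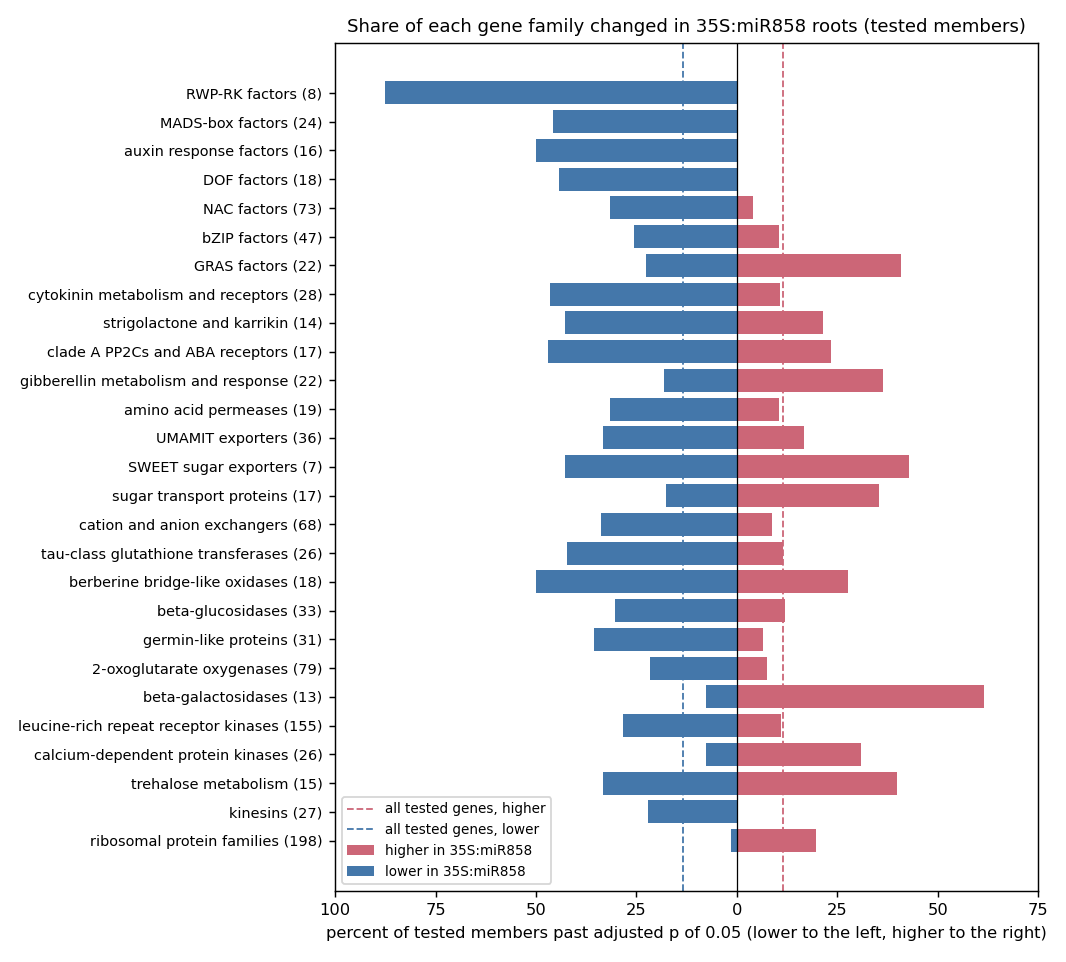
Percent of the tested members of each family shown (number tested in brackets) that were lower (bars to the left) or higher (bars to the right) in 35S:miR858. Dashed lines mark all tested genes at 13.5% lower and 11.6% higher. The families were picked from a longer list, and TIR-class NLR proteins, at 12% higher and 9% lower, are among those not shown. RWP-RK, MADS-box, auxin response and DOF factors and kinesins show bars on the lower side alone, while beta-galactosidases and ribosomal protein families lean to the higher side.

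The cytokinin, abscisic acid, strigolactone and gibberellin lists each held genes that rose and genes that fell. Cytokinin genes of synthesis, activation, breakdown and perception had 13 lower and 3 higher of 28. IPT3, which makes the cytokinin backbone and responds to nitrate, stood at 10.2, 4.17 and 6.15 CPM in Col-0 and 24.7, 20.2 and 22.5 CPM in 35S:miR858 (log2 fold change 1.71, SE 0.26, adjusted p = 0.00125). LOG5, which turns the precursor into active cytokinin, stood at 11.5, 11.8 and 14.1 CPM and 0.6, 1.66 and 1.18 CPM (log2 fold change -3.43, SE 0.28, adjusted p = 5.35e-05). A gene of synthesis thus lay above Col-0 in every library while one of activation lay below it. LOG3 fell as well (log2 fold change -1.60, adjusted p = 0.0097). CKX7 and CKX2, oxidases that degrade cytokinin, were also lower. CKX7 stood at 5.86, 5.34 and 6.87 CPM and 2.04, 1.28 and 2.37 CPM (log2 fold change -1.64, SE 0.28, adjusted p = 0.00247). CKX2 had 2 counts in all over the 35S:miR858 libraries, 23.4 times lower (counting interval 6.19 to 198, adjusted p = 0.00569).

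For abscisic acid, the list of receptors and their clade A protein phosphatase 2C partners had 8 lower and 4 higher of 17, with a median log2 fold change of -0.44. All 4 that rose were receptors. PYL5 stood at 45.8, 50.3 and 52.9 CPM in Col-0 and 84.4, 109 and 108 CPM in 35S:miR858 (log2 fold change 1.02, SE 0.11, adjusted p = 0.000255). RCAR3 stood at 47.7, 36.7 and 44.3 CPM and 74.1, 80.9 and 92 CPM (log2 fold change 0.94, SE 0.12, adjusted p = 0.000502), and PYL6 and PYR1 rose with larger adjusted p-values (log2 fold change 1.01, adjusted p = 0.00949; log2 fold change 0.46, adjusted p = 0.00588). Phosphatases, which hold the pathway off, were among the falls: PP2CA stood at 68.6, 68.5 and 76.8 CPM and 45.4, 51.2 and 41 CPM (log2 fold change -0.64, SE 0.11, adjusted p = 0.00238), with ABI2 and HAI2 also lower (log2 fold change -0.77, adjusted p = 0.00638; log2 fold change -3.14, adjusted p = 0.0101). The receptor RCAR1 fell (log2 fold change -0.87, adjusted p = 0.0069), so receptors moved both ways.

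Strigolactone and karrikin genes had 6 lower and 3 higher of 14. The 6 falls and 2 of the rises held in each fit with 1 library left out, against 8.45% and 6.38% of all tested genes. CCD8, a carotenoid cleavage dioxygenase of strigolactone synthesis, stood at 8.62, 8.15 and 11.3 CPM in Col-0 and 2.64, 2.43 and 3.98 CPM in 35S:miR858 (log2 fold change -1.61, SE 0.31, adjusted p = 0.00493). CYP711A1, the later oxidase also called MAX1, stood at 57.2, 50.5 and 48.2 CPM and 22.9, 27.9 and 25.3 CPM (log2 fold change -1.04, SE 0.11, adjusted p = 0.000189). The karrikin receptor gene KAI2 stood at 54.9, 58 and 45.9 CPM and 25.9, 22.1 and 22.9 CPM (log2 fold change -1.16, SE 0.16, adjusted p = 0.00066). These 3 genes had every 35S:miR858 library below Col-0, while AT3G03990, the strigolactone receptor D14, was higher (log2 fold change 0.57, SE 0.13, adjusted p = 0.0116). Of the SMAX1-like repressors, AT2G40130 (SMXL8) fell and AT4G30350 (SMXL2) rose (log2 fold change -2.83, adjusted p = 0.000203; log2 fold change 0.57, adjusted p = 0.00823). Gibberellin genes had 8 higher and 4 lower of 22, with 5 higher with Col-0 replicate 2 left out, without 35S:miR858 replicate 3 or by library totals. The gibberellin-regulated peptide gene GASA1 stood at 112, 124 and 132 CPM and 338, 536 and 488 CPM (log2 fold change 1.89, SE 0.16, adjusted p = 5.91e-05). The catabolic oxidase GA2OX2 rose (log2 fold change 1.42, SE 0.20, adjusted p = 0.000846) and the receptor gene GID1B fell (log2 fold change -1.15, SE 0.12, adjusted p = 0.000147).

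Transport genes held some of the largest changes. HAK5, a high-affinity potassium transporter known from potassium-starved roots, stood at 23.4, 158 and 111 CPM in Col-0 and 1.92, 1.15 and 0.43 CPM in 35S:miR858 (log2 fold change -6.39, SE 0.86, adjusted p = 0.000679). Col-0 replicate 1 was several times below the other Col-0 libraries and still lay above the highest 35S:miR858 library. Potassium channels and transporters as a list had 5 lower and 4 higher of 27, with 2 higher without Col-0 replicate 2 or without 35S:miR858 replicate 3. The outward channel gene GORK fell (log2 fold change -0.82, SE 0.14, adjusted p = 0.00271) and the carrier gene KUP10 rose (log2 fold change 0.98, SE 0.14, adjusted p = 0.00114). Cation and anion exchangers and channels had 23 lower and 6 higher of 68, with 3 higher without Col-0 replicate 3. Glutamate receptor-like channels were among the falls: GLR2.2 stood at 6.72, 7.24 and 9.28 CPM and 0.36, 0.384 and 0.215 CPM (log2 fold change -4.55, SE 0.32, adjusted p = 3.47e-05), and ATGLR1.2 at 12.3, 11.7 and 13.3 CPM and 0.6, 1.15 and 0.753 CPM (log2 fold change -3.88, SE 0.30, adjusted p = 4.11e-05). CLC-A, the exchanger that loads nitrate into the vacuole, went the other way, at 102, 75.2 and 123 CPM and 292, 281 and 266 CPM (log2 fold change 1.48, SE 0.18, adjusted p = 0.000417). The related anion channel genes SLAH2 and SLAH4 moved apart (log2 fold change 1.66, adjusted p = 0.000169; log2 fold change -2.84, adjusted p = 0.000376).

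Amino acid carriers were lower more often than higher. Of 19 tested amino acid permeases 6 fell and 2 rose, with 1 rise in 5 of the 6 fits with 1 library left out (the exception was the fit without Col-0 replicate 2). AAP6 stood at 43.9, 62.9 and 56.9 CPM in Col-0 and 10.4, 6.53 and 5.6 CPM in 35S:miR858 (log2 fold change -2.86, SE 0.24, adjusted p = 5.85e-05). AAP4 stood at 98.7, 246 and 169 CPM and 36.3, 51.2 and 62 CPM (log2 fold change -1.78, SE 0.30, adjusted p = 0.00228). The proline carriers PROT1 and PROT2 fell without overlap (log2 fold change -1.16, adjusted p = 0.0029; log2 fold change -1.36, adjusted p = 0.00123). UMAMIT proteins, which carry amino acids and related compounds across membranes, had 12 lower and 6 higher of 36. UMAMIT19 had 1 count in all over the 35S:miR858 libraries, 157 times lower (counting interval 27.8 to 6230, adjusted p = 0.000303). UMAMIT17 stood at 58.1, 71.4 and 86.6 CPM and 15, 18.8 and 20.9 CPM (log2 fold change -1.98, SE 0.22, adjusted p = 0.000235). UMAMIT29 went up, from 2.67, 1.81 and 3.62 CPM to 10.9, 13.7 and 16.7 CPM (log2 fold change 2.37, SE 0.25, adjusted p = 0.000181), and UMAMIT20 with it (log2 fold change 1.81, adjusted p = 0.000587).

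Sugar carriers leaned to higher levels. Of 17 tested sugar transport proteins 6 rose and 3 fell. All 6 rises and 2 of the falls held in each fit with 1 library left out, against 6.38% and 8.45% of all tested genes. The hexose uptake carriers STP1 and STP4 stood at 116, 155 and 180 CPM and 91.1, 90.5 and 127 CPM in Col-0. In 35S:miR858 they stood at 260, 372 and 404 CPM and 203, 234 and 265 CPM (log2 fold change 1.199, adjusted p = 0.00314; log2 fold change 1.18, adjusted p = 0.000767). Of the vacuolar carriers TMT1 rose and TMT2 fell (log2 fold change 1.09, adjusted p = 0.00025; log2 fold change -0.69, adjusted p = 0.000845). The SWEET exporters, a list added after values were seen, had 3 higher and 3 lower of 7. SWEET12, a sucrose exporter of the phloem, stood at 8.79, 6.7 and 10.4 CPM in Col-0 and 60.6, 80.5 and 88.5 CPM in 35S:miR858 (log2 fold change 3.16, SE 0.20, adjusted p = 2.66e-05). SWEET14 had 1 count in all over the 35S:miR858 libraries, 285 times lower (counting interval 50.9 to 11300, adjusted p = 0.00139). SWEET2, a vacuolar carrier of root cells, stood at 23.1, 22.3 and 21.4 CPM and 5.04, 8.32 and 11 CPM (log2 fold change -1.45, SE 0.22, adjusted p = 0.00145).

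Metal carriers were mixed, with 12 higher and 10 lower of 54. The rises numbered 7 with Col-0 replicate 2 left out, without 35S:miR858 replicate 2 or by library totals, and the falls 6 without Col-0 replicate 3 or without 35S:miR858 replicate 2. The zinc carriers ZIP3, ZIP5 and ZIP11 were among the falls (log2 fold change -2.73, adjusted p = 0.00014; log2 fold change -2.195, adjusted p = 0.000159; log2 fold change -1.86, adjusted p = 0.000539). ZIP3 stood at 105, 149 and 231 CPM in Col-0 and 29.4, 23.8 and 19.6 CPM in 35S:miR858. NRAMP1, the manganese uptake carrier, stood at 53.9, 42.7 and 67.8 CPM and 101, 157 and 161 CPM (log2 fold change 1.35, SE 0.20, adjusted p = 0.00111), and the boron exporter BOR1 at 45.3, 32.5 and 44.5 CPM and 81.3, 84 and 84.3 CPM (log2 fold change 1.03, SE 0.12, adjusted p = 0.000359). For each of these genes the groups did not overlap. AT3G25190, a vacuolar iron transporter-like gene, stood at 9.91, 4.53 and 11.2 CPM and 56.5, 82.4 and 85.9 CPM (log2 fold change 3.14, SE 0.30, adjusted p = 0.000117).

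**Figure D3:**
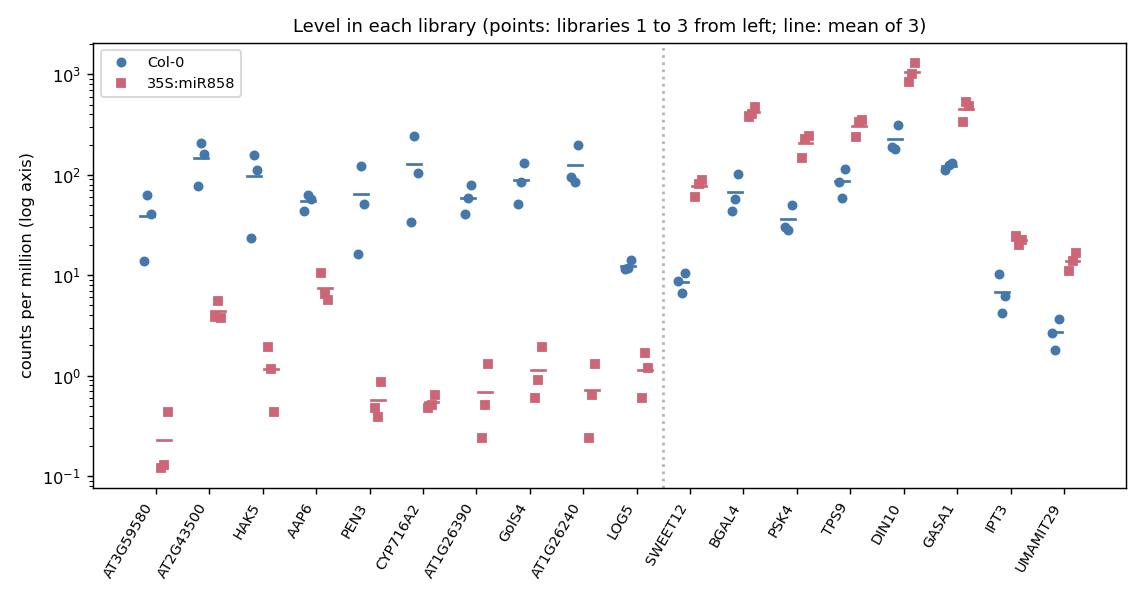
CPM on a log axis for 18 genes named in the text, with 1 point for each library (circles Col-0, squares 35S:miR858) and a line at the mean of 3. In the 10 genes left of the dotted line every 35S:miR858 point lies below every Col-0 point, and in the 8 to its right every 35S:miR858 point lies above. The genes were chosen among those whose groups do not overlap, so this separation was set by the choice.

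Specialised metabolism and defence enzymes changed in both directions. Cytochrome P450 genes, the oxidases of many plant pathways, had 34 lower and 23 higher of 158, and 15 higher without Col-0 replicate 2 or without 35S:miR858 replicate 2. CYP82C2, an oxidase of indole-derived defence compounds, stood at 26.1, 38.4 and 56.8 CPM in Col-0 and 0, 0.512 and 0.538 CPM in 35S:miR858 (log2 fold change -6.78, SE 0.56, adjusted p = 5.86e-05). CYP706A2 went up, from 7.58, 1.9 and 6.03 CPM to 37.2, 74.5 and 26.5 CPM (log2 fold change 3.15, SE 0.48, adjusted p = 0.00135), with replicate 2 the highest of its group. Berberine bridge-like oxidases had 9 lower and 5 higher of 18, with a median log2 fold change of -0.59. AT1G26390 stood at 40.5, 58.3 and 78.4 CPM and 0.24, 0.512 and 1.29 CPM (log2 fold change -6.36, SE 0.39, adjusted p = 2.4e-05). AT1G30730 of the same family stood at 50.8, 49.4 and 108 CPM and 267, 284 and 262 CPM (log2 fold change 1.97, SE 0.28, adjusted p = 0.000918). The 2 relatives were separated from Col-0 in opposite directions. Tau-class glutathione transferases, which attach glutathione to toxins, had 11 lower and 3 higher of 26. The falls numbered 6 with Col-0 replicate 3 left out, 7 without 35S:miR858 replicate 2 and 6 without 35S:miR858 replicate 3. GSTU9 stood at 52.4, 94.2 and 81.3 CPM and 24.5, 23 and 23.2 CPM (log2 fold change -1.69, SE 0.18, adjusted p = 0.000223), and GSTU25 at 10.4, 9.33 and 13.6 CPM and 30.5, 44 and 48.6 CPM (log2 fold change 1.89, SE 0.25, adjusted p = 0.00063).

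UDP-glycosyltransferases, which attach sugars to small molecules, were balanced at 10 higher and 11 lower of 48. UGT74E2, which glycosylates the auxin indole-3-butyric acid, stood at 4.05, 1.99 and 3.74 CPM and 12.6, 35.3 and 48.7 CPM (log2 fold change 3.31, SE 0.48, adjusted p = 0.00102). Its 35S:miR858 values spread widely but stayed above Col-0. MATE efflux proteins had 12 lower and 8 higher of 41, with 4 higher without Col-0 replicate 2, and AT5G17700 stood at 20.7, 23.7 and 23.6 CPM and 1.68, 1.02 and 2.8 CPM (log2 fold change -3.59, SE 0.28, adjusted p = 4.43e-05). Among 79 tested 2-oxoglutarate oxygenases 17 fell and 6 rose, and 29 fell by library totals. Beta-glucosidases had 10 lower and 4 higher of 33. BGLU7 stood at 31.5, 40 and 31.5 CPM and 7.56, 6.4 and 4.52 CPM (log2 fold change -2.48, SE 0.24, adjusted p = 0.000118). BGLU46 stood at 42, 32.1 and 40.7 CPM and 105, 93.7 and 74.2 CPM (log2 fold change 1.25, SE 0.17, adjusted p = 0.000678), and its neighbour BGLU45 rose beside it (log2 fold change 1.60, adjusted p = 0.0032).

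Secreted proteins of the wall and of defence showed the same mixture. Germin-like proteins, cupins of the cell wall, had 11 lower of 31. There were 2 that rose, 1 of which was lost without Col-0 replicate 1 or 2 or without 35S:miR858 replicate 2 or 3. GLP4 stood at 27.9, 36.8 and 46.3 CPM in Col-0 and 2.16, 3.07 and 3.34 CPM in 35S:miR858, GLP5 at 284, 192 and 240 CPM and 318, 576 and 590 CPM (log2 fold change -3.68, adjusted p = 3.34e-05; log2 fold change 1.05, adjusted p = 0.00734). Chitinases and pathogenesis-related proteins had 9 lower and 4 higher of 47, and the chitinase gene ChiC stood at 98.9, 98.2 and 153 CPM and 18.2, 12.8 and 15.5 CPM (log2 fold change -2.91, SE 0.21, adjusted p = 3.51e-05). Proline-rich extensin-like proteins, added after values were seen, had 7 lower and 3 higher of 19, and 12 lower without 35S:miR858 replicate 1. AT1G26240 stood at 95.9, 85.5 and 197 CPM and 0.24, 0.64 and 1.29 CPM (log2 fold change -7.37, SE 0.52, adjusted p = 3.47e-05). Its neighbour AT1G26250 stood at 810, 618 and 1430 CPM and 50.1, 33.8 and 31.3 CPM (log2 fold change -4.63, SE 0.47, adjusted p = 0.000153). Proteins of this kind are built of repeats, so reads that match more than 1 place may be missing from the counts. For both genes every 35S:miR858 library lay below every Col-0 library. Beta-galactosidases, also added after values were seen, trim galactose from wall polymers, and 8 of 13 rose and 1 fell. BGAL4 stood at 43.3, 57.7 and 101 CPM and 380, 407 and 468 CPM (log2 fold change 2.64, SE 0.27, adjusted p = 0.000151), and BGAL1 at 258, 155 and 194 CPM and 421, 531 and 705 CPM (log2 fold change 1.45, SE 0.21, adjusted p = 0.00108). BGAL3 was the member that fell, at 158, 232 and 181 CPM and 77.8, 74.4 and 66.3 CPM (log2 fold change -1.39, SE 0.16, adjusted p = 0.000274).

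Receptors and signals showed falls among membrane kinases and small rises among calcium kinases. Leucine-rich repeat receptor kinases had 44 lower and 17 higher of 155, and 67 lower by library totals. AT5G37450 stood at 27.7, 23.4 and 32.7 CPM in Col-0 and 1.44, 1.02 and 0.968 CPM in 35S:miR858 (log2 fold change -4.59, SE 0.24, adjusted p = 9.9e-06). TIR-class NLR proteins, intracellular immune receptors, had 12 higher and 9 lower of 100, near the background, with 6 higher with Col-0 replicate 2 left out, 7 without 35S:miR858 replicate 2 and 15 lower by library totals. AT5G18350 stood at 8.36, 10.9 and 11.1 CPM and 0.48, 0.128 and 0.215 CPM (log2 fold change -5.12, SE 0.35, adjusted p = 3.34e-05). Calcium-dependent protein kinases had 8 higher and 2 lower of 26. The rises numbered 5 with Col-0 replicate 2 left out, 4 without 35S:miR858 replicate 2 and 3 by library totals. The falls numbered 6 without Col-0 replicate 1, and 1 without 35S:miR858 replicate 1 or 2 or by DESeq2. They were 5 with no filter on low counts, or when Col-0 replicate 1 was left out together with 35S:rMYB83 replicate 1. CPK9 stood at 67.6, 76.2 and 90.5 CPM and 106, 133 and 132 CPM (log2 fold change 0.67, SE 0.13, adjusted p = 0.00436).

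CLE peptides, short secreted signals of meristems and vascular tissue, had 6 higher and 5 lower of 14, in a list cut from a longer peptide list after values were seen. The rises numbered 3 in 5 of the 6 fits with 1 library left out (the exception was the fit without Col-0 replicate 1). CLE2 stood at 4.91, 3.98 and 6.27 CPM in Col-0 and 19.7, 20.4 and 21.2 CPM in 35S:miR858 (log2 fold change 2.02, SE 0.18, adjusted p = 8.61e-05). CLE41, which keeps the vascular cambium dividing, stood at 15.4, 15.8 and 16.5 CPM and 10.4, 8.19 and 8.72 CPM (log2 fold change -0.80, SE 0.12, adjusted p = 0.00145). The growth peptide gene PSK4 stood at 30.3, 28.3 and 50.1 CPM and 146, 229 and 246 CPM (log2 fold change 2.52, SE 0.25, adjusted p = 0.000135). CLE2 and PSK4 lay above Col-0 in every library and CLE41 below it.

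Of 198 tested genes annotated as ribosomal protein families, a few of which serve organelles, 39 rose and 3 fell, with a median log2 fold change of 0.22. The rises numbered 19 with Col-0 replicate 3 left out, 18 without 35S:miR858 replicate 1, 17 without 35S:miR858 replicate 2 and 14 by library totals, where the median was 0.07, and 62 with Col-0 replicate 1 and 35S:rMYB83 replicate 1 left out. The falls numbered 1 with Col-0 replicate 2 left out, 0 without 35S:miR858 replicate 2 and 6 by library totals. AT3G13580 stood at 140, 131 and 133 CPM in Col-0 and 237, 231 and 221 CPM in 35S:miR858 (log2 fold change 0.77, SE 0.08, adjusted p = 0.000174). AT3G02080 stood at 174, 175 and 142 CPM and 288, 258 and 232 CPM (log2 fold change 0.66, SE 0.12, adjusted p = 0.00353). Both were raised by less than 2-fold and without overlap. Kinesins, motor proteins of microtubules, had 6 lower and 0 higher of 27, with 0 higher at an unadjusted p under 0.05 and by DESeq2. KP1 was among them (log2 fold change -1.17, SE 0.16, adjusted p = 0.000838). The cell cycle gene CYCD3;1 stood at 58.8, 57.9 and 56.9 CPM and 24.7, 22.5 and 23.6 CPM (log2 fold change -1.29, SE 0.09, adjusted p = 3.51e-05), while CYCD2;1 rose from 36.6, 29.1 and 30.4 CPM to 51.9, 52.9 and 50.5 CPM (log2 fold change 0.69, SE 0.10, adjusted p = 0.00101).

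Sugar and energy genes included large opposite changes within a pathway. Trehalose phosphate is a sugar signal, and of 15 tested genes that make or remove it 6 rose and 5 fell, with 3 falls without Col-0 replicate 2. Among the rises were 4 synthase-like genes of class II. TPS9 stood at 85.2, 58.3 and 114 CPM in Col-0 and 239, 332 and 351 CPM in 35S:miR858 (log2 fold change 1.84, SE 0.23, adjusted p = 0.000438), and TPS8, TPS10 and TPS11 rose as well (log2 fold change 1.38, adjusted p = 0.00299; log2 fold change 1.21, adjusted p = 0.000321; log2 fold change 1.36, adjusted p = 0.00351). TPS1, the active synthase, fell from 60.6, 72.5 and 64.1 CPM to 40.3, 37.3 and 36 CPM (log2 fold change -0.80, SE 0.10, adjusted p = 0.000527), and so did the phosphatase gene TPPD (log2 fold change -2.68, adjusted p = 0.000416). Of 9 galactinol and raffinose genes 5 fell and 2 rose, with 1 rise without 35S:miR858 replicate 2 or by library totals. GolS4, which makes galactinol, stood at 51.1, 85.1 and 131 CPM and 0.6, 0.896 and 1.94 CPM (log2 fold change -6.22, SE 0.47, adjusted p = 3.93e-05). DIN10, annotated to raffinose synthesis and known as a dark-induced gene, stood at 191, 182 and 314 CPM and 837, 1020 and 1300 CPM (log2 fold change 2.204, SE 0.24, adjusted p = 0.000212). The groups were far apart for both genes, in opposite directions. Genes of alternative respiration in mitochondria had 3 lower, 2 higher and 6 that did not pass of 11. There was 1 rise without Col-0 replicate 2 or 3, without 35S:miR858 replicate 2 or 3 or by library totals. The alternative oxidase gene AOX1D stood at 9.48, 4.89 and 14.2 CPM and 0.36, 0.128 and 0.215 CPM (log2 fold change -5.24, SE 0.61, adjusted p = 0.000314), and the bypass dehydrogenase gene NDA2 fell as well (log2 fold change -1.42, adjusted p = 0.000877). PUMP1, an uncoupling protein gene, stood at 51.9, 47.4 and 52.9 CPM and 74.5, 69.5 and 64.1 CPM and rose (log2 fold change 0.45, SE 0.09, adjusted p = 0.00594).

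Some of the changed genes lie side by side on a chromosome. Runs of at least 3 neighbouring tested loci that all changed by at least 2-fold in 1 direction, a rule chosen after values were seen, numbered 28 with 91 genes. Of these 22 runs were lower and 6 higher, where 6.52% of all tested genes were lower by that much and 3.41% higher. In 14 runs, 13 lower and 1 higher, every member held in each fit with 1 library left out. Many runs hold tandem copies. The counter set apart alignments that were not unique, so reads shared by copies may be missing from the counts. One run on chr5:14209088-14226211 holds 2 cytochrome P450 genes and a triterpene synthase gene. In plants, genes for triterpene synthases are often found beside those of enzymes that modify the product. The synthase gene PEN3, which is not the transporter of the same short name, stood at 16.2, 123 and 51.7 CPM in Col-0 and 0.48, 0.384 and 0.861 CPM in 35S:miR858 (log2 fold change -6.72, SE 0.88, adjusted p = 0.000596). CYP716A2 stood at 34.1, 243 and 105 CPM and 0.48, 0.512 and 0.646 CPM (log2 fold change -7.82, SE 0.85, adjusted p = 0.000212), and AT5G36130 at 23.8, 158 and 64.2 CPM and 0.48, 0.256 and 0.108 CPM (log2 fold change -8.14, SE 0.90, adjusted p = 0.000229). Col-0 replicate 2 was the highest and replicate 1 the lowest for all 3 genes, and no 35S:miR858 library reached 1 CPM.

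Some genes of the thalianol cluster, whose triterpene products are known to shape the root microbiota, formed another run on chr5:19428888-19461706. THAS1, the cyclase that starts the route, stood at 353, 376 and 363 CPM in Col-0 and 50.3, 44.6 and 57.6 CPM in 35S:miR858 (log2 fold change -2.84, SE 0.34, adjusted p = 0.000377). The oxidases CYP708A2 and CYP705A5 stood at 260, 217 and 220 CPM and 183, 208 and 193 CPM in Col-0. In 35S:miR858 they stood at 77.7, 67.6 and 80.8 CPM and 95.4, 93.8 and 90.7 CPM (log2 fold change -1.62, adjusted p = 0.00131; log2 fold change -1.06, adjusted p = 0.0133). The acyltransferase gene AT5G47980 fell as well (log2 fold change -1.13, adjusted p = 0.0361), a call that did not hold in every fit with 1 library left out. A run takes in 1 direction alone and need not hold a whole cluster. AT5G47950, near this run but outside it, was higher (log2 fold change 0.71, SE 0.17, adjusted p = 0.0151). The 3 libraries of each group lay close together for the cyclase and the oxidases.

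Other lower runs held 3 berberine bridge-like oxidases, AT1G26380, AT1G26390 and AT1G26410, on chr1:9126737-9140439. A run on chr5:15131289-15143542 held the methyltransferase gene AT5G37990, at 337, 619 and 535 CPM in Col-0 and 18.2, 12.7 and 16.5 CPM in 35S:miR858 (log2 fold change -4.97, SE 0.40, adjusted p = 4.95e-05), between 2 zinc-binding dehydrogenase genes. A run on chr3:8801400-8812483 joined the ammonium transporter gene AMT1;3 (log2 fold change -1.81, SE 0.28, adjusted p = 0.00152) to its neighbour AMT1;5 and the predicted target MYB305. TIR-class NLR genes fell side by side on chr2:7410704-7427119, where AT2G17060 stood at 20.3, 25.6 and 29.2 CPM and 3.12, 2.3 and 2.47 CPM (log2 fold change -3.24, SE 0.23, adjusted p = 3.36e-05). Among the higher runs, CLE4, CLE7, CLE5 and CLE6 lie on chr2:13238021-13254859, and CLE5 stood at 1.46, 0.724 and 2.77 CPM and 12.1, 11.3 and 8.18 CPM (log2 fold change 2.71, SE 0.40, adjusted p = 0.00117). The calls of CLE4 and CLE7 (adjusted p = 0.0448 and 0.0439) did not hold in every fit with 1 library left out. No library of either gene exceeded 1.56 CPM. The peroxidase gene AT5G64120 on chr5:25650567-25666393 stood at 114, 107 and 198 CPM and 686, 764 and 766 CPM (log2 fold change 2.40, SE 0.25, adjusted p = 0.000172), beside 2 more peroxidase genes that rose. Of these the call of AT5G64110 (adjusted p = 0.0342) did not hold in every fit with 1 library left out. Coordinates are those of TAIR10.1, matched by locus. Among genes named here UMAMIT19, STP1, TMT1, TMT2, NRAMP1, CLC-A, GLP4, BGLU45, NAC042, CKX2, AT2G40130, CCD8, CYP711A1, CYCD3;1, TPS1, DIN10, GolS4, AT1G26250 and BGAL4 overlap another annotated locus, and since no source used here says whether HTSeq read the strand, reads of such a pair cannot be told apart.

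**Figure D4:**
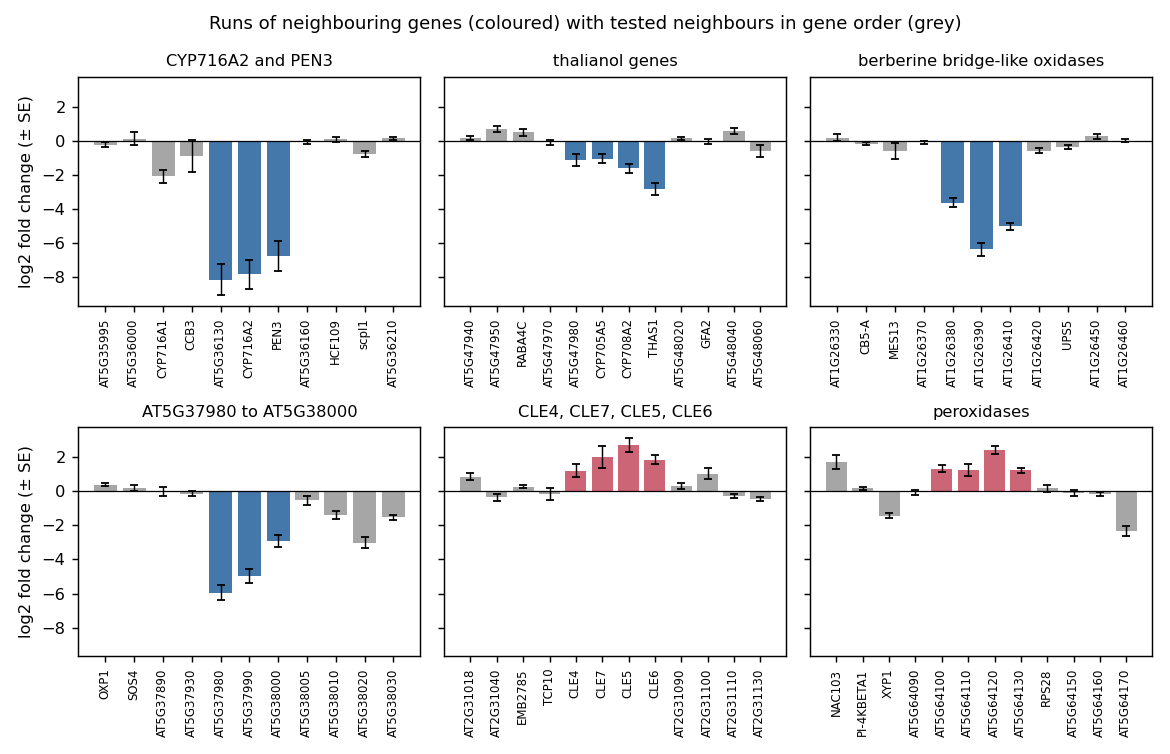
Log2 fold change with its standard error (vertical axis) of genes in chromosome order for 6 runs (coloured bars) and the tested genes on either side (grey bars). The bars of PEN3 and its neighbours reach -8.14, while the thalianol genes reach -2.84, and most grey bars lie near 0.

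Promoter sequences, taken from 250 bases before to 50 after each annotated start, were searched on both strands for motifs of known regulators. CGCGT, the core bound by calmodulin-binding CAMTA factors, lay in 15.8% (Wilson 95% interval 13.2 to 18.8) of the 665 promoters of genes higher by at least 2-fold. It lay in 9.49% of all 19480 promoters and in 6.85% (5.58 to 8.37) of 1271 promoters of genes lower by at least 2-fold. The W-box, TTGACC or TTGACT, which WRKY factors bind, lay in 39.5% (35.9 to 43.3) of the higher, 35.2% (32.6 to 37.8) of the lower and 33.2% of all promoters. The phosphate element GNATATNC lay in 9.17% (7.21 to 11.6), 7.55% (6.22 to 9.14) and 6.18%. ACGTGT or ACGTGG, which abscisic acid-linked bZIP factors bind and which can overlap the G-box CACGTG, lay in 24.9% (22.6 to 27.4) of the lower, 22.3% (19.3 to 25.6) of the higher and 20.3% of all promoters. The intervals cover counting alone, and a match is a description of letters, not of binding.

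For the CAMTA core the promoters of 2 neighbouring zinc finger genes show how the matches sit. ZAT7, at low counts throughout, had 0.172, 0 and 0 CPM in Col-0 and 1.32, 3.07 and 1.61 CPM in 35S:miR858, with 2 counts in all over the Col-0 libraries. AT3G46080 stood at 0.776, 0.453 and 0.241 CPM and 4.44, 4.61 and 3.12 CPM (log2 fold change 2.96, SE 0.38, adjusted p = 0.000539), without overlap. Capitals mark CGCGT or its reverse complement, with 3 matches in each, some overlapping.
ZAT7 promoter, chr3:16926834-16927133, minus strand: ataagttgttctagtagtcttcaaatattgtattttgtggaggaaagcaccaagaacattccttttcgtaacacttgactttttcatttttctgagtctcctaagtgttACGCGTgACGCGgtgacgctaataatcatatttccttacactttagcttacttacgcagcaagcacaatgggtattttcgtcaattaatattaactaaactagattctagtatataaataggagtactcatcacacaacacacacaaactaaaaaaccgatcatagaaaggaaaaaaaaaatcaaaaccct
AT3G46080 promoter, chr3:16923250-16923549, minus strand: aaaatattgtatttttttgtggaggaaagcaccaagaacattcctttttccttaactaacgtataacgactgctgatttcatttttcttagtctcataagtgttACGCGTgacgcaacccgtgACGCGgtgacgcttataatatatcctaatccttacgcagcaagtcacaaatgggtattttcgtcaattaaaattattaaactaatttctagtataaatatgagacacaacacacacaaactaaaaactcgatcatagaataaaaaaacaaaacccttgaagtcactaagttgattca

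The telo-box AAACCCTA, known from promoters of translation genes, lay in 40.4% (33.8 to 47.4) of the 198 ribosomal protein promoters and in 5.37% of all. It lay in 51.3% (36.2 to 66.1) of those of the 39 ribosomal protein genes that rose and in 37.7% (30.6 to 45.5) of the other 159, and these intervals overlap. Among genes changed by at least 2-fold it lay in 3.16% (2.07 to 4.78) of the higher and 2.36% (1.66 to 3.35) of the lower. At any fold it lay in 6.3% (5.37 to 7.37) of the higher and 2.7% (2.15 to 3.39) of the lower. The windows can reach into a neighbouring gene: in that of AT3G02080 the match lies in the leader of AT3G02090, which runs the other way. In that of AT5G23900, of the ribosomal protein L13e family, the match, in capitals, lies just before the start, and the gene stood at 116, 118 and 100 CPM and 192, 153 and 166 CPM (log2 fold change 0.61, SE 0.11, adjusted p = 0.00333).
AT5G23900 promoter, chr5:8065501-8065800, minus strand: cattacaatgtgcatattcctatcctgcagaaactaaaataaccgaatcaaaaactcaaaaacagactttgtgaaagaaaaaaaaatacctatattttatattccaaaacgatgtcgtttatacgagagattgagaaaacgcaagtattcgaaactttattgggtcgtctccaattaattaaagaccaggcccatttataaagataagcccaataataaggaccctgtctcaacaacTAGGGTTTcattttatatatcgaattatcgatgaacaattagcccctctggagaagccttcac

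**Figure D5:**
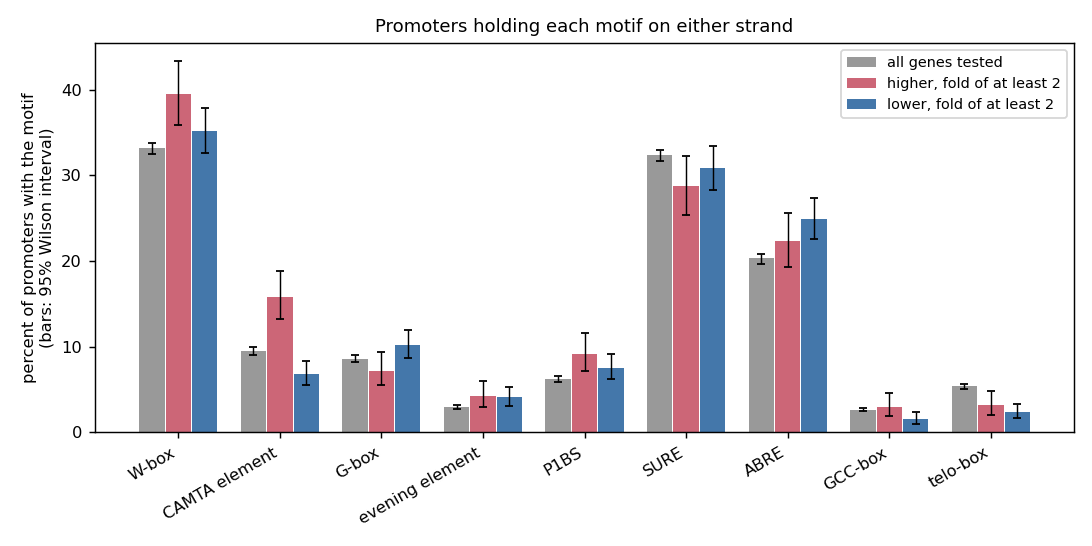
Percent of promoters that hold each of 9 motifs on either strand, for all tested genes (grey), genes higher by at least 2-fold (red) and genes lower by at least 2-fold (blue), with Wilson 95% intervals. The CAMTA element shows the widest relative gap, at 15.8% of higher and 6.85% of lower genes.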

How the data were processed

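The deposited values are whole-number read counts per locus, which the authors made with FastQC, Trimmomatic, TopHat2 2.0.14 and HTSeq on TAIR10, per the submitters' processing notes. Libraries were made from magnetically isolated mRNA with an NEBNext kit, per the labels' protocols. Summary lines of the counter were left out. In the Col-0 and 35S:miR858 libraries, reads in no feature were 3.62 to 5.89% and ambiguous reads 1.72 to 2.08%. These are shares of the reads in genes, in no feature or ambiguous, and leave out alignments that were not unique. Such alignments outnumbered the gene counts, at 1.363 (Col-0 replicate 1) to 1.867 (35S:miR858 replicate 1) per gene count. Genes passing filterByExpr were scaled by TMM and tested with edgeR 4.0.16 in R 4.3.3 (quasi-likelihood test, Benjamini-Hochberg adjustment over all 19496 genes, threshold 0.05). The fit held all 9 libraries, so 35S:rMYB83 adds to the estimate of spread. Each SE, also in the figures, is the size of the log2 fold change divided by the square root of that test's F statistic. DESeq2 1.42.0 was an alternative. The code was tested on simulated data, with changes set in genes of at least 1 CPM on average. It recovered 51% of 100 changes of 2-fold and 93% of 100 of 4-fold, with 6 false calls. A gene that did not pass may thus still have changed. CPM uses TMM-scaled library sizes.

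Names, sites, promoters and coordinates come from RefSeq TAIR10.1, matched by locus for 28009 of 28775 loci. Families were chosen by name patterns in that annotation. Members, lists and motifs were chosen with earlier results of these data known, and RWP-RK, SWEET, beta-galactosidase, extensin-like, CLE and neighbour lists after values were seen. Named genes are predicted targets up to a penalty of 4, and the 10 genes of largest fold each way and up to 4 each way per family, and the text prints only some of them. All but the targets held in each of 6 fits with 1 library left out, had a mean of at least 1 CPM and did not overlap between groups. Targets at a penalty above 4, genes in neighbour runs and genes with a printed promoter are named outside that rule, after their values were seen. Intervals cover counting error only.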

Additional observations from a re-analysis of the deposited data

How the results depend on the processing

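The number of genes higher kept within 1.5 times of 2271 and the number lower within 1.5 times of 2629 under RLE size factors, no filter on low counts, the 6 libraries alone, rRNA loci removed, DESeq2 and the fit without the green-rich libraries. Library totals gave 1355 higher and 4148 lower. Leaving out 1 library gave 1493 to 2277 higher and 1975 to 2869 lower, the lowest of both without 35S:miR858 replicate 2. The number of predicted targets that were lower went from 3 to 5 by library totals and to 10 at a penalty of up to 5. Of the genes named by the rule, the library totals weakened 7 calls, strengthened 2 and reversed 1, and DESeq2 weakened 1. The reversed values belong to genes that did not pass the test: MYB20 stood at -0.0457 by library totals and ran from -0.0061 (without 35S:miR858 replicate 3) to 0.2232 with 1 library left out, and MYB83 ran from -0.0147 (without Col-0 replicate 3) to 0.8395 on the log2 scale. The cause was not tested. Of 212 family counts, 67 moved by more than 1.5 times by library totals, 66 without Col-0 replicate 2 and 64 without 35S:miR858 replicate 2, against 2 under RLE size factors. Of 18 motif shares 4 moved when every gene past the test was taken. These were the shares of the CAMTA core, the W-box, the phosphate element and the telo-box among higher genes. Same-numbered replicates had deviations that correlated at -0.0598, 0.122 and -0.257, and pairs of unlike number ran from -0.309 to 0.323. With so few libraries a group, whether same-numbered replicates share more than a number cannot be told from these values. A replicate block gave 2324 higher and 2678 lower and moved 12 family counts.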
